A study of Mus musculus with 6 samples.

Results

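The 37 genes described here are the Wnt ligands (19 genes), the Frizzled receptors (10 genes) and the secreted antagonists of the Sfrp (4 genes) and Dkk (4 genes) families, as open chromatin showed them in nuclei of the newborn mouse heart. The genes were chosen by symbol from the 21911 protein-coding genes of GENCODE M21, and each was scored by the peaks within its gene body plus 2 kb on either side. Of these genes, 31 of 37 (83.8%) had a peak in all 6 libraries, where 70.1% of all protein-coding genes did. The 4 families differed in where the peaks lay. A peak that overlapped the 1 kb to either side of the gene start by at least 1 bp is called the promoter peak here. It was present in all 6 libraries for 9 of 10 receptors but for 5 of 19 ligands, against 56.1% of all protein-coding genes. Within 2 kb of the start, the ligands Wnt1, Wnt5a, Wnt6 and Wnt10b had a peak in all 6 libraries as well. For 12 of 19 ligands the strongest peak was away from the gene start in every library, where this held for 18.7% of all protein-coding genes.

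Wnt proteins are secreted, lipid-modified ligands that bind Frizzled, a family of receptors that span the membrane. With the co-receptors Lrp5 and Lrp6 the complex stabilizes beta-catenin, which enters the nucleus and acts with TCF/LEF factors, whereas other ligand and receptor pairs act on cell polarity and calcium without beta-catenin. Sfrp proteins carry a Frizzled-like domain and bind Wnt proteins outside the cell, and Dkk proteins block the co-receptors. In the heart the pathway is known for stage-dependent effects on progenitors and for its part in the outflow tract and the valves.

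Omni-ATAC-Seq maps accessible DNA by the places where a transposase can insert adapters, and was applied to 50000 nuclei per library from whole hearts of mice at postnatal day 1. All nuclei were first passed through a 2.2 M sucrose cushion, and each of the 3 groups had 2 biological replicates. The Input libraries held these nuclei from wildtype hearts without further selection. The Myc libraries held nuclei from Nkx2-5 Cre/+; R26RSun1-Myc-Egfp/+ hearts that were bound by an antibody to the Myc tag and collected on magnetic beads (MAN-IP). For the PCM1 libraries, wildtype nuclei were collected likewise with an antibody to PCM1, a centriolar satellite protein found around the nuclei of cardiomyocytes. The Sun1 tag is switched on by Cre and then persists, so that Myc nuclei came from cells with Nkx2-5 expression in their own past or that of a precursor, and the Myc hearts also differed from the other hearts in genotype. PCM1 is also present at the centrioles of dividing cells. Whole hearts were used, so a site open in few nuclei and a site weakly open in many cannot be told apart.

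The lists held between 75336 (Input replicate 2) and 131500 (Input replicate 1) peaks, and the genome-wide background pileup ran from 0.903 (PCM1 replicate 2) to 3.96 (Input replicate 1), a 4.38-fold range in depth. The smallest pileup called was 11 in Input replicate 1 and 5 or 6 elsewhere, and the absence of a peak therefore means that none was detectable at the depth of that library. Because lists of unequal length were compared, the strength of a peak is given as its rank percentile, the position of its -log10 q-value among all peaks of the same library, with 100 for the highest and 0 for a gene with no peak. Over all protein-coding genes the median rank percentile of the strongest peak was 88.2 and 78.6 (Input), 87.2 and 87.1 (Myc), and 78.9 and 78.3 (PCM1). The 12 cardiomyocyte markers had a median of 95.0 ± 2.98 (SD over 6 libraries), above the endothelial (85.3), fibroblast (65.4 ± 11.3) and epicardial (51.5 ± 12.4) markers. All 12 cardiomyocyte and all 12 endothelial markers had a peak in every library. Peaks at endothelial, fibroblast and epicardial markers were thus called as well. The endothelial medians were 88.9 and 81.1 (Input), 84.9 and 86.1 (Myc), and 84.8 and 86.0 (PCM1). For the fibroblast list they were 79.1 and 59.0 (Input), 71.0 and 75.5 (Myc), and 55.7 and 51.8 (PCM1). For the epicardial list they were 69.4 and 46.0, 59.6 and 56.6, and 37.4 and 40.1. The part of these markers' cells in the peaks of the Wnt genes was not tested.

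Sequences around the summit are shown for the region of a class that, among those open in all 6 libraries, ranked highest in its weakest library, and for regions called in some groups alone. They were read from RefSeq's GRCm38.p6 (mm10) on the plus strand, end where an untranslated region begins, and carry in capitals the letters of the motifs searched (spelled out further on). The Fzd4 sequence (chr7:89404238-89404354) ends at the base before the gene start and shows a run of GC boxes, at the gene with the highest mean rank percentile of the 37. The Sfrp1 sequence (chr8:23411381-23411501) likewise ends just before the gene start, and the Wnt9a sequence (chr11:59306753-59306873) lies around a summit 115 bp upstream of its start. The Wnt6 sequence (chr1:74773214-74773334) comes from an intron, 1382 bp past a gene start that had no peak. The Dkk3 sequence (chr7:112140876-112140996) is intronic as well, and was chosen for its weakest library, although other Dkk3 peaks ranked higher in every library.
Fzd4 promoter: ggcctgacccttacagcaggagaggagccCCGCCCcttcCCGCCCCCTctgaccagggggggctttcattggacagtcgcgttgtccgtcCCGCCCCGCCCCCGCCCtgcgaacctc
Sfrp1 promoter: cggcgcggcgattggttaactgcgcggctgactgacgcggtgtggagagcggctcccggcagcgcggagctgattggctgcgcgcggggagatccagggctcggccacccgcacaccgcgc
Wnt9a promoter: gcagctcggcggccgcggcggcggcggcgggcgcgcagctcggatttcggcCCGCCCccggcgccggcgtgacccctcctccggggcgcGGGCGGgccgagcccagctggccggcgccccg
Wnt6 intron: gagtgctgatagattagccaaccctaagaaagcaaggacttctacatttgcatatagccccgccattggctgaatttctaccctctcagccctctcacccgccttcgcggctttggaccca
Dkk3 intron: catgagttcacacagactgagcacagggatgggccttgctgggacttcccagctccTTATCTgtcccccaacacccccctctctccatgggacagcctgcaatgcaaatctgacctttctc
The promoters of Fzd4 and Wnt9a hold matches to the GC box, with 71.8% and 87.6% G and C in the bases shown, whereas the Wnt6 intron holds 52.1% and no match to any motif searched.

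Promoter peaks were called for 30 and 27 of the 37 genes in the Input libraries (background over all protein-coding genes 66.0% and 59.8%), for 28 and 28 in Myc (63.7% and 63.5%) and for 22 and 25 in PCM1 (60.2% and 59.8%). In all 6 libraries a promoter peak was present for 18 of 37 genes (48.6%), against 56.1% of all protein-coding genes. With the starts of all coding transcripts it was present for 20 (background 59.7%), and within 2 kb of the gene start for 22 (background 58.9%). The genes gained within 2 kb were Wnt1, Wnt5a, Wnt6 and Wnt10b, all of them ligands, so that receptors and ligands differed less at that width. Only Dkk4 had no peak in its window in any library, where 19.4% of protein-coding genes had none. The median rank percentile of the strongest peak was 92.8 ± 1.86 for receptors, 69.8 ± 7.75 for ligands, 48.3 ± 19.2 for Sfrp genes and 43.0 ± 21.7 for Dkk genes (SD over 6 libraries), beside 83.0 ± 4.89 for all protein-coding genes. At the promoter alone the receptors had the same median of 92.8, while the ligands fell to 15.9 ± 14.6, beside 66.2 ± 10.2 for all protein-coding genes. Receptors therefore stood above and the other families below the median of all genes in both measures. Receptor genes were also short, with a median length of 5.25 kb, whereas ligands had 22.2 kb, Sfrp genes 8.94 kb and Dkk genes 23.4 kb (17.4 kb for all protein-coding genes).

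**Figure D1:**
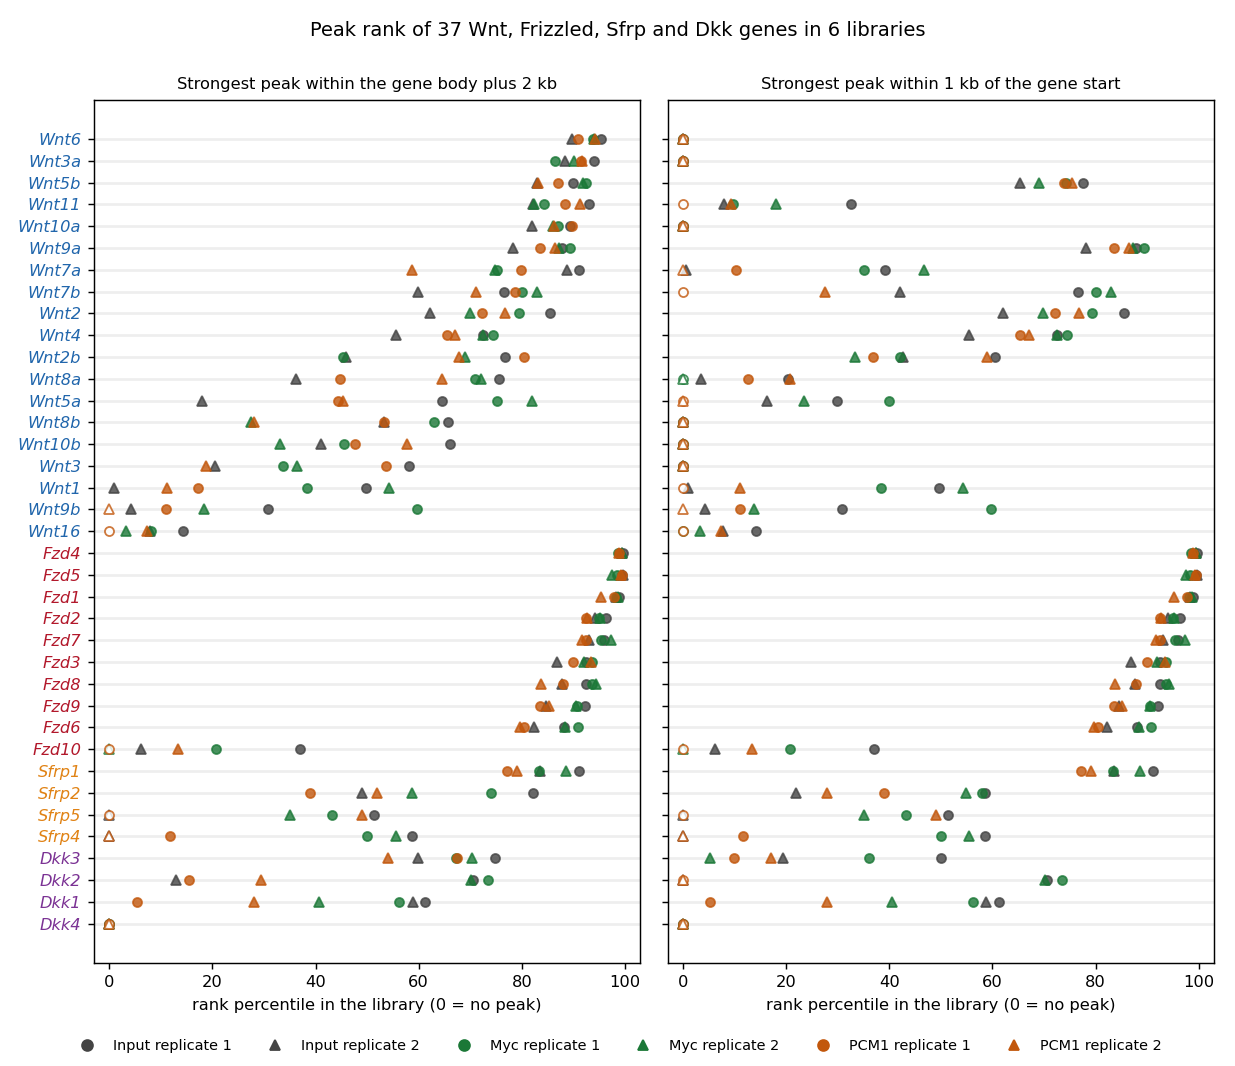
Rank percentile (x axis, 0 to 100, 0 for no peak and drawn open) of the strongest peak of each of the 37 genes in each of the 6 libraries, for the gene body plus 2 kb (left) and for 1 kb around the gene start (right), with colour for the group and shape for the replicate. The receptors other than Fzd10 lie at the right edge of both panels, from 79.6 upwards, whereas 6 ligands with peaks on the left have none on the right.

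Among the ligands, the strongest peaks were those of Wnt6, Wnt3a, Wnt5b and Wnt11. Wnt6, which acts in ectoderm and in the forming somites, had rank percentiles of 95.3 and 89.8 (Input), 93.8 and 94.0 (Myc), and 90.9 and 94.1 (PCM1), all at the intronic region 1382 bp past its start. For Wnt3a, a ligand of the tail bud, the values were 93.9 and 88.4 (Input), 86.4 and 90.1 (Myc), and 91.4 and 91.7 (PCM1), at an intronic region 7634 bp past its start (chr11:59282852-59283471). Neither gene had a promoter peak in any library. The groups overlapped at Wnt6, and at Wnt3a both PCM1 libraries lay above both Myc libraries.

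Wnt5b, which takes part in polarity signaling, reached 90.0 and 83.0 (Input), 92.5 and 91.8 (Myc), and 87.1 and 83.1 (PCM1). Its long gene body, however, contains the start of the F-box gene Fbxl14, and the region with the highest mean rank, 65101 bp past the Wnt5b start, had its summit 422 bp from the Fbxl14 start. The promoter peak of Wnt5b itself was at 77.5 and 65.3 (Input), 74.3 and 69.0 (Myc), and 73.8 and 75.5 (PCM1). The groups overlapped at the promoter, so that the higher position of both Myc libraries at the strongest peak belonged to the region near Fbxl14.

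Wnt11, a polarity ligand required in the outflow tract, had values of 93.1 and 82.2 (Input), 84.2 and 82.4 (Myc), and 88.3 and 91.2 (PCM1). The Wnt11 region with the highest mean rank lay in an intron 16249 bp past the start, with a second intronic region at 2973 bp. Its promoter peak was weak, at 32.5 and 7.86 (Input), 9.75 and 18 (Myc), and 0 and 9.37 (PCM1). Open chromatin at Wnt11 was thus strong in the gene body, and weak or not called at the gene start used here.

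Further ligands with a described part in the heart were weaker or less even. Wnt2, made by progenitors of the second heart field, had its strongest peak at the promoter in every library, at 85.5 and 62.1 (Input), 79.4 and 69.9 (Myc), and 72.2 and 76.7 (PCM1). Wnt2b, its close relative, had 76.8 and 45.8 (Input), 45.4 and 68.9 (Myc), and 80.4 and 67.9 (PCM1), and its promoter peak was weaker, at a mean of 45.7. With all peaks the groups overlapped at both genes. With the strongest 75336 peaks of every library, Wnt2b in PCM1 (78.4 and 65.3) lay above Input (59.5 and 45.8) and Myc (22.2 and 55.2).

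Wnt5a, a polarity ligand of the outflow tract, did separate them. Its strongest peak, in an intron 2929 bp past the start (chr14:28507537-28507974), was at 64.5 and 17.9 (Input), 75.2 and 81.9 (Myc), and 44.4 and 45.4 (PCM1). Both Myc libraries lay above the other 4. On the scale of the pileup at the summit over the genome-wide background, which does not rank peaks, the values were 19.0 and 15.6 (Input), 41.6 and 48.7 (Myc), and 21.5 and 24.4 (PCM1), and both Myc libraries were again the highest. Within 1 kb of the Wnt5a start, peaks were called in the Input and Myc libraries, at 29.8, 16.2, 40.0 and 23.5, and in neither PCM1 library. These peaks belonged to separate regions. The 16.2 of Input replicate 2 came from a region with its summit 1174 bp past the start. In that region PCM1 replicate 2 had a peak as well, at 25.6, which lay just outside the window.

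Wnt9b, a ligand of kidney tubules and of the endocardium of valves, had weak peaks of 30.8 and 4.19 (Input), 59.7 and 18.4 (Myc), and 11.0 and 0 (PCM1). The region at its start was called in 5 libraries. Myc replicate 1 stood far above its replicate at this gene.

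Of the remaining ligands, Wnt9a (85.4 ± 4.03, mean and SD over 6 libraries) had its strongest peak at the promoter in all 6 libraries. In Input replicate 1 and both Myc libraries this Wnt9a peak counted by overlap with the window alone, with summits 1052, 1061 and 1059 bp past the start. The strongest peak of Wnt4 (67.9 ± 7.01), a ligand of kidney and gonad, was at the promoter in all 6 libraries too. For Wnt2 this held by overlap alone. Wnt10a (86.7 ± 2.85), a ligand of teeth and skin appendages, had its strongest peak in a coding exon 11762 bp past its start and none at the promoter. Wnt7a (78.0 ± 11.7) and Wnt7b (74.8 ± 8.35) of epithelia, Wnt8a (60.7 ± 16.3) of early development, Wnt8b (48.5 ± 16.8) of the forebrain, Wnt10b (48.5 ± 11.8), Wnt3 (36.9 ± 16.4) of gastrulation and Wnt1 (28.6 ± 21.9) of the midbrain had peaks in all 6 libraries. The weakest ligand was Wnt16 (6.76 ± 4.83), with no peak in PCM1 replicate 1. The ligands without a promoter peak in any library were Wnt3, Wnt3a, Wnt6, Wnt8b, Wnt10a and Wnt10b. These were 6 of 19, a share close to the 31.8% of all protein-coding genes without one.

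The position of the ligand genes in the genome was not used in choosing them, and was not among the results planned. In 4 places 2 ligand genes were direct neighbours with no other protein-coding gene between them: Wnt6 and Wnt10a on chromosome 1, Wnt3a and Wnt9a as well as Wnt9b and Wnt3 on chromosome 11, and Wnt10b and Wnt1 on chromosome 15, with gaps of 6.2, 16.2, 24.3 and 11.7 kb between the genes. These 8 genes included 5 of the 6 ligands with no promoter peak, and the other 11 ligands included 1, Wnt8b. Of the 5, Wnt6 and Wnt10b had a peak within 2 kb of the start in all 6 libraries. No share was computed for neighbouring pairs of other genes, and a link between position and promoter peaks was not tested. Wnt9a had a promoter peak in 6 libraries, and its divergent neighbour Wnt3a in none. Likewise Wnt9b and Wnt1 had one in 5 libraries, and their divergent neighbours Wnt3 and Wnt10b in none.

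The receptors had the strongest peaks. Fzd4, the receptor for the non-Wnt ligand Norrin in blood vessels, was at 99.7 and 99.4 (Input), 98.6 and 99.4 (Myc), and 98.9 and 98.8 (PCM1). Its gene start lies 133 bp from the divergent start of Tmem135, a gene of peroxisomes and mitochondria, and the peak covers both, so that it cannot be given to one of them. Fzd5 was at 99.5 and 99.7 (Input), 98.4 and 97.5 (Myc), and 99.4 and 99.3 (PCM1), and Fzd1 at 98.9 and 98.3, 98.2 and 98.7, and 97.8 and 95.3. All 3 stayed among the strongest peaks of every library, although for Fzd5 both Myc libraries lay below the other 4.

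Fzd2 had 96.3 and 94.1 (Input), 95.0 and 95.2 (Myc), and 92.4 and 92.7 (PCM1), and Fzd7, which with Fzd1 and Fzd2 forms a subfamily of like sequence, 96.0 and 93.0, 95.4 and 97.3, and 92.4 and 91.7. For both genes the PCM1 libraries were the lowest. The polarity receptors Fzd3 (91.4 ± 2.64, mean and SD over 6 libraries) and Fzd6 (85.0 ± 4.72), and Fzd8 (90.0 ± 4.14) and Fzd9 (87.8 ± 3.75), followed, all at the promoter. Fzd8 itself was at 92.5 and 87.7 (Input), 93.7 and 94.3 (Myc), and 87.9 and 83.8 (PCM1), with both Myc libraries above the other 4. It also had a second region in its coding exon, with summit 1405 bp past its start and 78.3 on average.

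Fzd10 was the exception, with 37.0 and 6.23 (Input), 20.7 and 0 (Myc), and 0 and 13.4 (PCM1). Its summit pileup was 6.57 to 8.86 times the background where a peak was called, against 97.8 to 349 for Fzd5. Fzd10 was therefore the receptor for which a promoter peak was not detectable in every library.

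**Figure D2:**
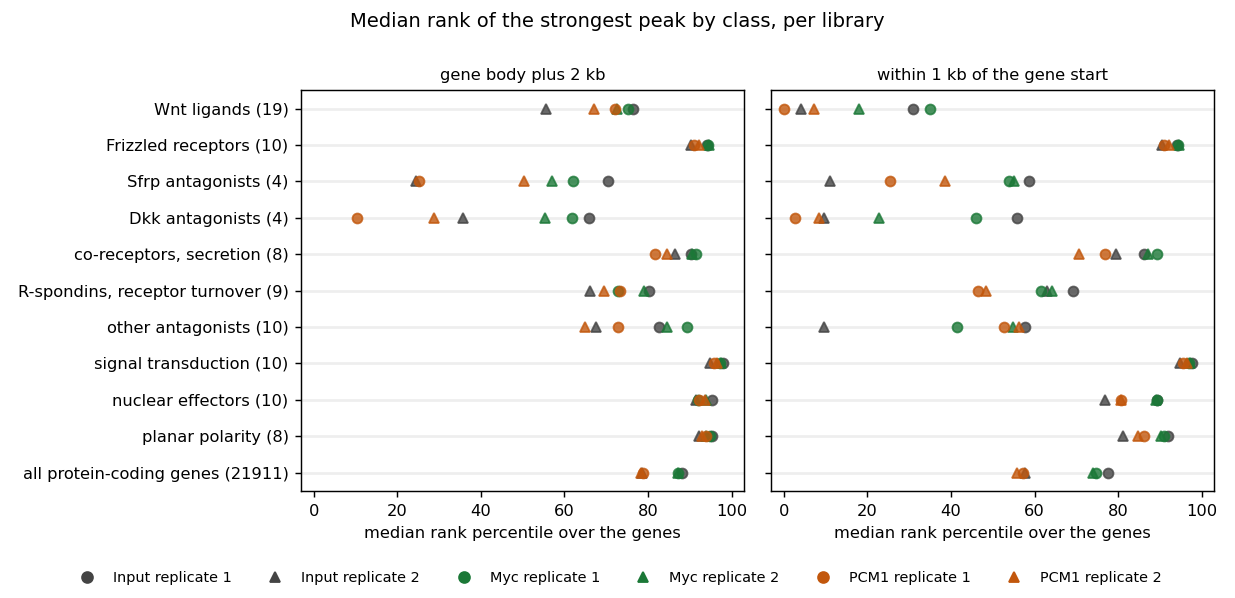
Median rank percentile (x axis, 0 to 100) of the strongest peak over the genes of each class in each library, for the gene body plus 2 kb (left) and for 1 kb around the gene start (right), with the number of genes in brackets. The receptors lie between 90.4 and 94.7 in both panels, whereas the ligands drop from between 55.5 and 76.5 on the left to between 0 and 35.1 on the right.

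Of the Sfrp genes, Sfrp1 had 91.1 and 83.6 (Input), 83.3 and 88.6 (Myc), and 77.2 and 79.1 (PCM1), all at the promoter. Sfrp2 had 82.1 and 49.0 (Input), 74.1 and 58.7 (Myc), and 38.9 and 51.9 (PCM1), with its strongest region 1905 bp upstream in 5 libraries and at the promoter in PCM1 replicate 1. At both genes the PCM1 libraries lay below both Myc libraries with all peaks, but with equal numbers of peaks the Myc and PCM1 libraries overlapped, at 76.2 and 83.6 against 74.9 and 77.4 for Sfrp1. Sfrp4 was at 58.6 and 0 in Input, at 55.5 in Myc replicate 2 and a little lower in Myc replicate 1, and at 11.7 and 0 in PCM1, where 0 means no peak. Its summit pileup over the genome-wide background was 15.4 and 0 (Input), 19.4 and 22.3 (Myc), and 12.3 and 0 (PCM1). Sfrp5, an antagonist of endoderm and fat, was at 51.3 and 0 (Input), 43.2 and 35.0 (Myc), and 0 and 49.0 (PCM1). At both genes the peak was thus called in 1 replicate and not in the other within Input and within PCM1, and in both Myc libraries.

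The Dkk genes had the lowest median of the families. Dkk1, the best known inhibitor of Lrp5 and Lrp6, was at 61.3 and 58.8 (Input), 56.2 and 40.6 (Myc), and 5.31 and 28.0 (PCM1), at a promoter region with its summit in the untranslated part of the gene (chr19:30548843-30549853). Both Input libraries lay above both Myc libraries, and both Myc libraries above both PCM1 libraries. When only the strongest 75336 peaks of every library were kept, Dkk1 was at 32.5 and 58.8 (Input), 37.7 and 14.4 (Myc), and 0 and 22.1 (PCM1). Myc then overlapped with both other groups, and both Input libraries lay above both PCM1 libraries. Dkk2 was at 70.6 and 12.9 (Input), 73.5 and 70.1 (Myc), and 15.4 and 29.4 (PCM1). Its strongest peak lay 11148 bp past the start in Input replicate 2, 2088 bp past it in PCM1 replicate 2, and upstream in the other libraries. Dkk3, a divergent family member, was steadier at 74.7 and 59.8 (Input), 67.2 and 70.3 (Myc), and 67.4 and 54.1 (PCM1), with its strongest peak in an intron in every library. A weaker promoter peak, with a mean of 22.9 ± 17.0 (SD over 6 libraries), was also called in all of them. The 3 groups overlapped at the strongest peak of Dkk3. For Dkk4 no peak was detectable in its window at any depth.

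The strongest peak was at the promoter in all 6 libraries for 9 of 10 receptors, 3 of 19 ligands, 1 of 4 Sfrp genes (Sfrp1) and 1 of 4 Dkk genes (Dkk1), where this held for 40.6% of all protein-coding genes. In gene structure, 6 of 10 receptors are single-exon genes, against 6.14% of all protein-coding genes, and no ligand, Sfrp or Dkk gene is one. The single-exon gene Fzd10 had its strongest peak at the promoter in the 4 libraries where a peak was called. Fzd3, Fzd4, Fzd5 and Fzd6, with more exons, had the strongest peak there in all 6 libraries. A start was called CpG-rich where the observed over expected number of CpG was at least 0.6 over 500 bp to either side, which held for 45.9% of all protein-coding genes, 10 of 10 receptors, 13 of 19 ligands, 3 of 4 Sfrp genes and no Dkk gene. Of all genes with a CpG-rich start, 90.5% had a promoter peak in all 6 libraries. Among the receptors 9 of 10 did, but among the ligands with such a start only 5 of 13 (38.5%). Of these ligands, Wnt5a, Wnt6 and Wnt10b also had a peak in all 6 libraries within 2 kb. The share of all CpG-rich starts was not computed at that width. Wnt3a (CpG observed over expected 0.748), Wnt6 (0.738), Wnt10b (0.628) and Wnt3 (0.617) had a CpG-rich start and no promoter peak in any library, while Wnt11 (0.818) and Wnt7a (0.813) had one in 5 libraries, as did Wnt9b (0.753). The median for the ligands was 0.654, for the receptors 0.826 and for all genes 0.552. Of the 11 genes with a CpG-poor start, Dkk1 (0.445) and Dkk3 (0.425) had a promoter peak in all 6 libraries, where 26.9% of all such genes did.

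**Figure D3:**
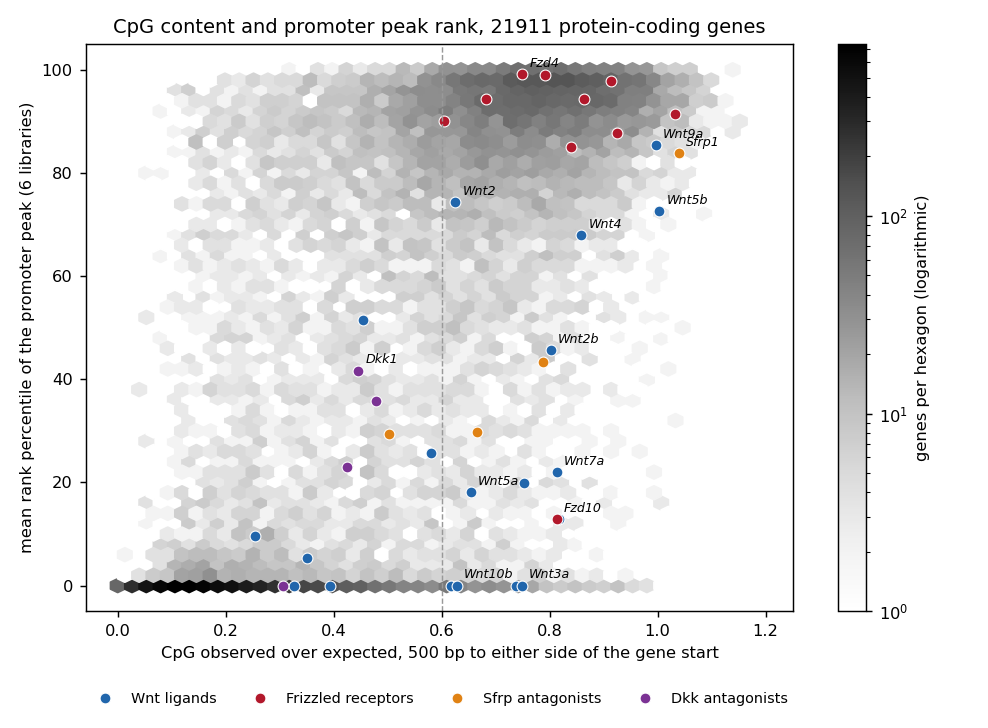
CpG observed over expected within 500 bp of the gene start (x axis, a ratio) against the mean rank percentile of the promoter peak over 6 libraries (y axis), for 21911 protein-coding genes as grey hexagons with a logarithmic count and for the 37 genes as coloured points, with the limit of 0.6 as a dashed line. The receptors apart from Fzd10 sit in the dense field at the upper right, whereas 8 of the 13 ligands to the right of the line lack a promoter peak in at least 1 library.

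Peaks of the 6 libraries that overlapped by at least 1 bp were merged, which gave 157 regions in the windows of the 37 genes, 40 of them at a promoter and 117 elsewhere. Of these, 59 (37.6%) had a peak in all 6 libraries, against 28.8% of the 169881 regions of the genome, and 35 (22.3%) had one in a single library, against 30.4%. By annotation 84 of the 157 lay in introns, 30 upstream, 21 in untranslated regions, 13 in coding exons and 9 downstream. The families again differed. Receptors had 10 of 12 promoter regions in all 6 libraries and 1 of 9 regions elsewhere, at an intron of Fzd6 13592 bp past its start. Ligands had 6 of 20 promoter regions and 34 of 86 regions elsewhere in all 6 libraries, Sfrp genes 2 of 4 and 1 of 8, and Dkk genes 1 of 4 and 4 of 14. Per 10 kb of window there were 1.72 regions for ligands, 1.15 for receptors, 1.57 for Sfrp genes and 1.12 for Dkk genes. For 23 of the ligands' regions, 19 of them in the Wnt5b window, the nearest protein-coding start belonged to another gene.

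**Figure D4:**
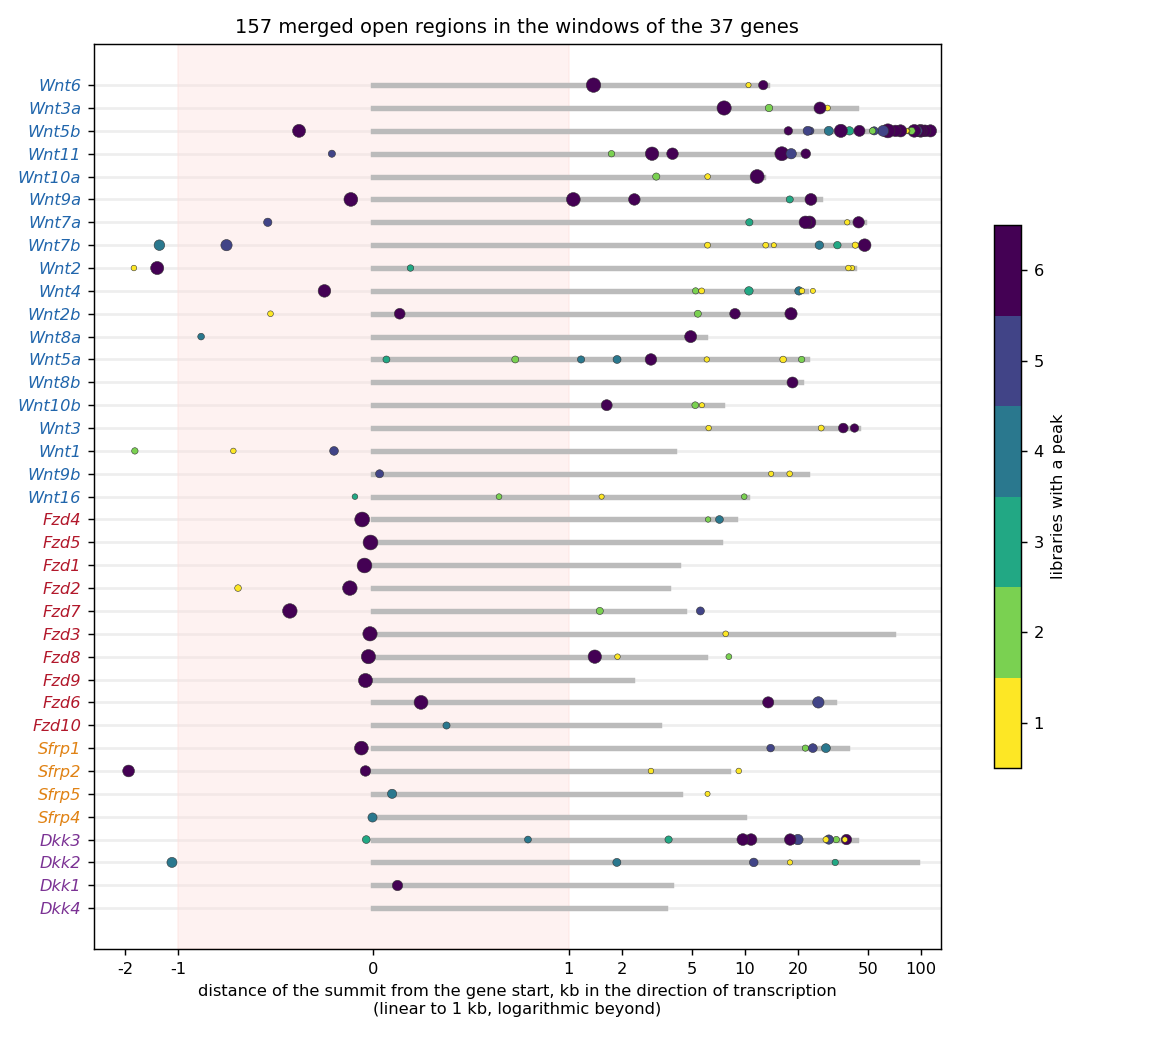
Distance of each merged region's summit from the gene start (x axis, kb, linear to 1 kb and logarithmic beyond) for the 37 genes, with the gene body as a grey bar, the number of libraries with a peak as colour and larger points for a higher mean rank percentile. Receptor regions of all 6 libraries crowd at the start, whereas those of ligands are spread over the gene body.

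**Figure D5:**
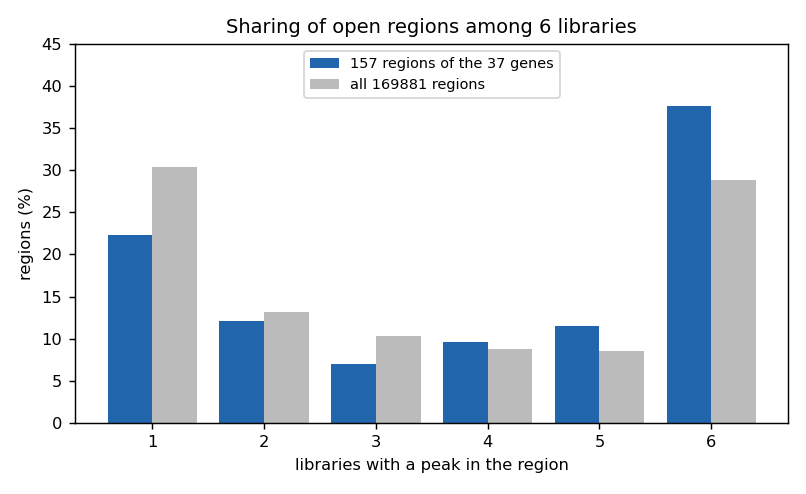
Share of regions (y axis, %) that had a peak in 1 to 6 libraries (x axis), for the 157 regions of the 37 genes and for all 169881 regions. Regions in all 6 libraries were 37.6% of the first and 28.8% of the second.

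Few regions were called in both libraries of some groups alone. Both Input libraries and no other had 3 of the 157 regions (background 1.08% of all regions), which lay in an untranslated region of Fzd4 6191 bp past its start (9.33 and 3.38), downstream of Fzd8 (3.47 and 22.4) and in an intron of Wnt5b 88776 bp past its start (46.7 and 33.4). Both Myc libraries alone had 1 region (background 1.84%), in an untranslated region of Wnt5a 21052 bp past its start, at 36.9 and 7.80. Both PCM1 libraries alone had 0 (background 0.254%). None of these peaks ranked above 46.7 in its library.

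Both Input and both PCM1 libraries without Myc had 2 regions (background 0.268%), in an intron of Wnt5b 30049 bp past its start with 52.6 and 31.9 in Input and 46.0 and 41.7 in PCM1, and upstream of Wnt8a with 20.3, 3.50, 12.6 and 20.8. Both Myc and both PCM1 libraries without Input had 0 (background 0.104%). With so few regions these counts rest on single libraries: without Input replicate 2 the Input regions were 20, without Input replicate 1 the Myc regions were 5 and the PCM1 regions 3, and without Myc replicate 1 the Myc regions were 9, since leaving out a library asks less of a region. Without Myc replicate 2 the Myc regions were 5 and without PCM1 replicate 2 they were 2, while the PCM1 regions were 2 and 3 without PCM1 replicates 1 and 2.

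The sequences of 2 of these regions, both in introns of Wnt5b, are given as examples of regions called in some groups alone. They are chr6:119455511-119455631 (Input alone) and chr6:119514238-119514358 (Input and PCM1).
Wnt5b Input intron: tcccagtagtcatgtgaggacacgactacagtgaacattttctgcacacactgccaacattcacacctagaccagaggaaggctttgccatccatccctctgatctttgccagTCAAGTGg
Wnt5b Input and PCM1 intron: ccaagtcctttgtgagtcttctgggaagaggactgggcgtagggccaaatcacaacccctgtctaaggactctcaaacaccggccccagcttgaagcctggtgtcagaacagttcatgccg
The Wnt5b sequence of Input alone holds a match to the NKX2-5 site, and that of Input and PCM1 holds no match to any motif searched.

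Between groups, a gene was counted where both libraries of a group lay above both libraries of the other in the rank percentile of the strongest peak. The strongest peak could lie at a different site in each library, as it did at Wnt7a, Wnt7b, Wnt11 and Dkk2. With 2 libraries against 2 an exact two-sided permutation test cannot give a p below 0.333, so no test was made. Both Myc libraries were above both Input libraries for 6 of 37 genes (16.2%: Fzd6, Fzd8, Wnt4, Wnt5a, Wnt5b and Wnt7b), where 22.4% of all protein-coding genes were, and below them for 3 (8.11%: Dkk1, Fzd5 and Wnt7a), where 9.14% were. With the strongest 75336 peaks of every library in place of all peaks, the counts were 12 (32.4%, background 29.7%) and 9 (24.3%, background 16.5%). The shares thus lay under the background with all peaks and over it with equal numbers. By pileup over background both Myc libraries were above both Input libraries for 19 genes. No share of all protein-coding genes was computed on this scale, or for the counts with a library left out. Wnt5a, Wnt4, Wnt5b, Wnt7b, Fzd6 and Fzd8 were counted for Myc in both settings, and Fzd5 and Wnt7a for Input in both. Wnt7a was at 91.0 and 88.7 (Input), 75.2 and 74.7 (Myc), and 79.9 and 58.6 (PCM1), and the Input libraries lay above the other 4. These values came from 2 intronic regions. At the region 22108 bp past the start, Myc was at 24.8 and 59.2 and PCM1 at 78.2 and 58.6, both below Input. At the region 23363 bp past it the groups overlapped, at 75.4 and 46.6 (Input), 75.2 and 74.7 (Myc), and 79.9 and 47.8 (PCM1). Without Input replicate 1 the Myc count was 24 and without Myc replicate 2 it was 10, and the Input count rose to 24 without Input replicate 2 and to 7 and 8 without Myc replicates 1 and 2.

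Both PCM1 libraries were above both Input libraries for 0 genes (background 3.92%) and below them for 11 (29.7%, background 26.9%), namely Dkk1, Fzd1, Fzd2, Fzd4, Fzd5, Fzd6, Fzd7, Sfrp1, Wnt7a, Wnt8b and Wnt16. With equal numbers of peaks these counts were 9 (24.3%, background 16.2%) and 11 (29.7%, background 25.3%). By pileup over background the counts were 10 and 4, again without a share of all protein-coding genes. Neither count was therefore stable, and the cause was not tested. At equal numbers all but 1 of the 9 genes above Input, Fzd3, were ligands. The list below Input held 6 receptors with all peaks and 7 with equal numbers, of 10. Their distances were small, as for Fzd1 with 98.1 and 98.3 in Input and 97.6 and 94.9 in PCM1 at equal numbers. Without Input replicate 1 the count above Input was 16, without PCM1 replicates 1 and 2 it was 1 and 3, and without Input replicate 2 the count below Input was 32.

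Both Myc libraries were above both PCM1 libraries for 19 genes (51.4%, background 48.1%), and below them for 4 (Fzd5, Wnt3a, Wnt10b and Wnt11; background 9.01%). With equal numbers the counts were 10 (background 33.7%) and 7 (background 16.7%). Fzd2, Fzd6, Fzd7, Fzd8 and Fzd9, Sfrp4, Dkk2, Wnt1, Wnt5a and Wnt5b were counted for Myc in both settings, and Fzd5, Wnt3a, Wnt10b and Wnt11 for PCM1 in both. For Wnt11 the values at equal numbers were 77.5 and 74.7 in Myc and 87.1 and 90.5 in PCM1. Without Myc replicate 1 the PCM1 count was 7, and without PCM1 replicate 2 it was 8. The medians of the fibroblast and epicardial markers were lower in PCM1 than in Myc. So was the median of all protein-coding genes, at 78.9 and 78.3 in PCM1 and 87.2 and 87.1 in Myc. The endothelial medians overlapped, at 84.8 and 86.0 in PCM1 and 84.9 and 86.1 in Myc. The sucrose cushion used for every library is meant to enrich cardiomyocyte nuclei over the cells of these other marker lists. The median of the cardiomyocyte markers was 90.2 and 92.5 in Myc, below the 95.6 to 97.5 of the other 4 libraries. The part of these cells in the peaks was not tested.

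The letters of 7 motifs were searched on both strands in the 301 bp around the strongest summit of regions open in all 6 libraries, for 20 regions at a promoter of any protein-coding gene and 39 elsewhere. The GC box of SP and KLF factors (GGGCGG) was in 14 of 20 promoter regions, as in 71.1% of all 11481 such regions of the genome, and in 11 of 39 others (28.2%), where 13.7% of 37380 had it. The TCF/LEF site (TCAAAG), through which beta-catenin acts, was in 2 promoter regions (9.22% of all) and in 9 others (23.1%, 17.4% of all). For the TEAD site (GGAATG) these counts were 0 (10.5% of all) and 11 (28.2%, 22.1% of all), and for the GATA site (AGATAA) 0 (4.04%) and 5 (12.8%, 17.4% of all). The NKX2-5 site (TNAAGTG) was in 0 promoter regions (6.47% of all) and 2 others (5.13%, 15.9% of all), and the MEF2 site (CTAAAAATA) in 0 (0.444%) and 1 (2.56%, 2.94% of all). The CTCF core, searched as AGGGGGC and also in the forms AGGTGGC and then AGATGGC, was in 7 (35.0%, 31.2% of all) and 6 (15.4%, 22.2% of all), and its first form can overlap the GC box, as it does in the Fzd4 sequence. These matches describe letters and not binding.

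The other genes of the pathway, 55 in 6 lists, had a peak in all 6 libraries in 53 cases (96.4%) and a promoter peak in all 6 in 44 (80.0%). The median rank percentile of the strongest peak was 96.6 for the 10 genes of signal transduction in the cell, 93.9 for the 8 planar polarity genes, 93.1 for the 10 nuclear effectors, 87.5 for the 8 co-receptors and secretion genes, 77.0 for the 10 other antagonists and 73.5 for the 9 R-spondins and their receptor turnover genes. The receptors had 92.8 and the ligands 69.8 on this scale. These are means over 6 libraries, and the order was not the same in each, since the ligands lay above the R-spondin list in Myc replicate 1 (75.2 against 72.7) and above the other antagonists in PCM1 replicate 2 (67.1 against 65.0). Among the other regulators, Wif1 (91.0 ± 4.99, mean and SD over 6 libraries), a secreted inhibitor that binds Wnt proteins, and Apcdd1 (92.9 ± 1.84), an inhibitor in the membrane, had a promoter peak in every library, while Rspo1 (1.51 ± 3.71), a secreted enhancer of the pathway, had a peak in 1 library and Dkkl1, a relative of the Dkk genes, in none. Axin2 (95.1 ± 2.01), a feedback inhibitor induced by beta-catenin, had a promoter peak in all 6 libraries, and Lef1 (51.3 ± 15.1) had one in 5, at a mean of 7.98. Ctnnb1, the gene of beta-catenin, had its strongest peak outside the promoter window used here (92.3 ± 5.41).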

How the data were processed

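Omni-ATAC-Seq peak lists of 6 libraries (Input, Myc and PCM1, 2 biological replicates each, grouped by the labels) were analysed. The authors trimmed reads, mapped them to mm10 with Bowtie2 2.3.3.1, marked duplicates with Picard 2.2.1, removed blacklisted regions with bedtools 2.7.1, shifted reads for Tn5 insertion, and called peaks per library with MACS2 2.1.0.20160309 at a q-value threshold of 0.05. The fold in the deposited lists is the ratio of summit pileup to local background, and 2 columns deposited by the authors hold the summit's -log10 q-value and -log10 p-value. Reads were not used here, and replicates were not pooled.

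The 37 genes and the gene lists were chosen with earlier results of these data known. Peaks were assigned to GENCODE M21 genes on GRCm38 (gene body plus 2 kb; promoter 1 kb to either side of the gene start), after leaving out mitochondrial genes and repeated symbols. All 103 listed pathway and marker genes were found. Pileup and background were solved from the fold and p-value, within 0.02 of the -log10 p-value. Values in every library are given for the 4 ligands and 4 receptors with the highest mean rank, all Sfrp and Dkk genes, Wnt2, Wnt2b, Wnt5a, Wnt9b and Wnt11, genes with a region in both libraries of one group alone, and genes without a peak; others were named after their values were seen. Fzd8 and Wnt8a are shown without sequence, and 1 region is not reported here. Alternatives were a q-value of 0.01, equal numbers of peaks, ranks by fold, pileup over background, other windows and gene starts, 50% overlap, and each library left out. Python 3.11.15 with numpy 2.4.6, pandas 2.3.3, scipy 1.17.1, pysam 0.24.0 and matplotlib 3.10.9 was used, and scripts were tested on simulated data.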

Additional observations from a re-analysis of the deposited data

How the results depend on the processing

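Of 162 recomputed values, 125 stayed within the spread between libraries or within 1.5 times the count, 37 moved beyond it, and 0 reversed. The 125 include the q-value of 0.01, under which every value equalled the main one, and the planned 50% overlap. With 10 kb around the gene the median of the ligands was 81.2 and that of the Sfrp genes 72.7, and ranked by fold enrichment the median of the receptors was 86.1. The median of all protein-coding genes was not computed in these settings, so the place of the families relative to it is not known there. With equal numbers of peaks the regions of Input alone were 1 and those of PCM1 alone 2, and 38 regions had peaks covering at least 50% of the region in all 6 libraries, an alternative added after the data were seen because the planned 50% overlap was met by every peak. Genes with Myc above Input were 12 with equal numbers and 19 by pileup over background. Those with Input above Myc were 9 by fold, 9 with equal numbers and 5 by the promoter peak (also added after the data were seen). Those with PCM1 above Input were 2, 9 and 10 by fold, equal numbers and pileup, and those with Input above PCM1 were 4 by pileup. Those with Myc above PCM1 were 10 with equal numbers, and those with PCM1 above Myc were 7 with equal numbers and 2 by the promoter peak. No share of all protein-coding genes was computed for the gene counts by fold, by pileup or by the promoter peak. The cause of these moves was not tested.

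With each library left out in turn, regions of Input alone ranged from 3 to 20, of Myc alone from 1 to 9 and of PCM1 alone from 0 to 3. Genes with Myc above Input ranged from 6 to 24, Input above Myc from 3 to 24, PCM1 above Input from 0 to 16, Input above PCM1 from 11 to 32 and PCM1 above Myc from 4 to 8. A library left out asks less of a gene or region, which by construction can raise these counts. No paired analysis was possible because the results come from no test, and the replicate numbers only name libraries. Depth, 4.38-fold apart between libraries, limits every statement that a peak is absent, and with 2 libraries per group no difference between groups has a p-value.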
